A study of Mus musculus with 3 samples.

Results

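Granule-rich neutrophil lineage cells are the marrow barcodes whose RNA is dominated by neutrophil granule and calprotectin transcripts and which carry little RNA of the vascular niche. They were taken by a rule on raw UMIs, the unique molecular identifiers that each stand for 1 captured transcript. A barcode entered with 500 or more genes, no more than 10% mitochondrial UMIs, at least 5% of its UMIs from S100a8, S100a9, Ngp, Camp, Ltf and Lcn2 together, no UMI of Cdh5, at most 5 of Cxcl12 and fewer than 5 of Elane, Mpo and Prtn3 together. The rule gave 274 of 12790 quality-filtered cells, or 2.14%. It reads measured values, so the high level of these 6 granule genes and the low level of the other 5 genes are a description of the choice and not results.

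The 3 libraries came from marrow of mice of strain C57Bl/6JCrl, all given tamoxifen by gavage, and each library stood for 1 genotype. The VC library had the genotype Cdh5CreERT2;Vegfc flox/flox, in which a Cre recombinase that tamoxifen activates is driven by the promoter of VE-cadherin, an endothelial adhesion protein. The FLOX library had Vegfc flox/flox with no Cre named, and the WT library had neither allele named. Vegfc encodes vascular endothelial growth factor C, and no UMI of it was found in any of the 274 cells, so the deletion could not be checked in them. The exact Poisson upper bound is 6.15 CPM (UMIs of a gene per 1000000 summed UMIs) in VC, 3.75 in FLOX and 2.44 in WT. Marrow flushed from tibiae was enzymatically dissociated after an antibody to VE-cadherin had been injected intravenously, and erythrocytes were removed. Staining covered CD45, Ter119 and LepR, and droplet libraries were made with a 10x 3′ kit. The study aimed at endothelium and LepR-positive stroma, and neutrophil lineage cells are a minor population of the preparation. The sources used here give no sort gates, ages or numbers of mice per library. With 1 library per genotype no test was run, all intervals are 95% intervals of counting error alone, and a difference between genotypes cannot be told apart from a difference between mice or preparations.

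Neutrophils mature in the marrow through promyelocytes, myelocytes, metamyelocytes and bands to segmented cells, and they make their granules in order. Primary granules with myeloperoxidase and elastase come first, secondary granules with lactoferrin, cathelicidin and lipocalin follow, gelatinase granules and secretory vesicles come last, and division stops between the secondary and the gelatinase stage. Interferons, cytokines released during infection and inflammation, act on neutrophils through transcription factors of the STAT and IRF families and switch on genes for antigen processing, antiviral enzymes and GTPases that attack intracellular pathogens.

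The VC library held 50 members among 2738 quality-filtered cells (1.83%, exact binomial interval 1.36 to 2.40%). The FLOX library held 99 of 5734 (1.73%, 1.41 to 2.1%) and the WT library 125 of 4318 (2.89%, 2.42 to 3.44%). The shares in VC and FLOX overlapped within counting error, and both lay below that in WT. The sort sets these shares as well, and its part was not tested. Members carried a median of 9944.5 UMIs and 2002 genes in VC, 7924 UMIs and 1964 genes in FLOX, and 12130 UMIs and 2341 genes in WT, or 599735, 983621 and 1513679 UMIs in all. Of all barcode sequences, 5 were shared between VC and FLOX, 6 between VC and WT and 10 between FLOX and WT, none of them by members on both sides. Scrublet, a doublet caller, marked none of the 274 cells. Among all quality-filtered cells it called 0.329% in VC, 1.26% in FLOX and 0.232% in WT, where 6% were expected. That no member was marked thus does not show that members are single cells.

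The condition on niche RNA removed unequal numbers from the libraries. Of the barcodes with at least 5% granule UMIs, 110 in VC, 202 in FLOX and 167 in WT, a UMI of Cdh5 was present in 43, 77 and 15. Barcodes that met every other condition but carried Cdh5 or more than 5 UMIs of Cxcl12 numbered 52, 77 and 13, with a median granule share of 14.8%, 15.5% and 40.3% of their UMIs. Members had a median granule share of 39.8% in VC (5.22 to 52.5%), 35.9% in FLOX (7.84 to 49.9%) and 42.8% in WT (5.97 to 58.9%). Around the 5% threshold the data were sparse. The lowest member stood at 5.22% in VC, 7.84% in FLOX and 5.97% in WT, and the highest barcode left out by this condition stood at 4.85%, 4.74% and 3.77%. Between 5 and 10% lay 2, 3 and 5 members.

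Of the 5 markers of the label, S100a8, Ngp, Camp and Ltf are genes of the rule, so their presence follows from the choice. S100a8, a subunit of the calcium-binding protein calprotectin, was found in all 50, 99 and 125 members. Retnlg, a resistin-like secreted protein of maturing neutrophils and the one marker that the rule does not use, was found in 42, 82 and 90 members. It stood at 5096 CPM in VC, 4872 in FLOX and 3808 in WT, against 6.09, 2.38 and 1.63 CPM in endothelium of the same libraries, taken as barcodes with at least 3 UMIs of Cdh5 and under 0.5% granule UMIs. Ngp, an abundant secondary granule protein of mice, was found in 44, 83 and 117 members, Camp, the cathelicidin precursor, in 41, 79 and 111, and Ltf, lactoferrin, in 40, 76 and 101. Every member with no UMI of all 3 genes stood in the late range of the maturation order described below. In endothelium of the same libraries a UMI of Ngp was found in 7.78%, 10.9% and 21.6% of cells at median depths of 10463, 7970.5 and 11184.5 UMIs.

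Outside mitochondrial and ribosomal genes, the most abundant transcripts were S100a9, S100a8, Camp and Ngp, all of the rule. S100a9, the partner of S100a8 in calprotectin, stood at 150992 CPM in VC, 128073 in FLOX and 158640.0 in WT. Camp was nearly level across the libraries, at 46962, 45976 and 46672 CPM, and so was Ltf at 11704, 11869 and 11752 CPM. S100a8 was less even, at 121559, 106352 and 154720.0 CPM. Outside the rule, the secondary granule list was led by Lyz2, lysozyme, at 12926, 12890.1 and 9990.2 CPM, and by Chil3, a chitinase-like protein, at 6129, 6216 and 6125 CPM. Of 16 secondary granule genes, all were measured (10 UMIs or more and a mean over libraries of 10 CPM or more), and none in VC stood 1.5-fold or more above or below both controls and further from them than they stood from each other. Across all 6016 genes so measured, 3.14% stood above both controls by that rule and 8.91% below. On the log2 scale the genes of this list had median ratios of 0.02 (VC over FLOX) and 0.17 (VC over WT), beside −0.12 and −0.03 over all genes.

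The promoters of Ngp and Ltf are shown because these 2 genes define the secondary granule program that the rule reads, and because C/EBP factors, among them C/EBP-epsilon, are known to act on secondary granule genes. The letters TTNNGCAA, the core of a C/EBP site, were searched on both strands in the 250 bases before each start in RefSeq (GRCm38.p6) and are printed in capitals. They occurred in 5 of 7 windows of the rule genes and Retnlg and in 9.56% of 32851 windows of all genes. Ngp is a gene of chromosome 9 (ENSMUSG00000032484) on the plus strand, and its window, chr9:110419558-110419807, held 2 matches, 138 and 11 bases before the start. Ltf (ENSMUSG00000032496) lies on the same chromosome and strand, and its window, chr9:111019042-111019291, held 1 match 75 bases before the start. S100a8 and Camp held no match in their windows. A match is a description of letters and not a site of binding.
Ngp: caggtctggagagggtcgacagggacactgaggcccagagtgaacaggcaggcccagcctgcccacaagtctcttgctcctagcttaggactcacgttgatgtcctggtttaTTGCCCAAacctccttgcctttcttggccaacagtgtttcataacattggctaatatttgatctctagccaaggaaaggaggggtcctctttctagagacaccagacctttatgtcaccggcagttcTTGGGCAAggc
Ltf: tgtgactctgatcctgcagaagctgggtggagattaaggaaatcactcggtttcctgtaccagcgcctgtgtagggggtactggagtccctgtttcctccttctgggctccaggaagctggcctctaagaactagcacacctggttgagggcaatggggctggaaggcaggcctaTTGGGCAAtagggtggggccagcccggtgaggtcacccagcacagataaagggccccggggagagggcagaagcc

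Members were ordered along a maturation axis, the log2 ratio of the UMIs per 10000 of 6 late genes to those of 4 early genes, each with 1 added. The late genes were Retnlg, Mmp8, Cxcr2, Csf3r, Ccl6 and Il1b, and the early ones Fcnb, Cebpe, Chil3 and Orm1. The 274 cells were cut into 3 ranges of this score at −4.57 and 2.26, called early (91 cells), middle (91) and late (92). These are ranges and not cell types: 79 cells lay within 1 unit of the lower cut and 15 within 1 unit of the upper one. The levels of the 10 axis genes across stages follow from the choice.

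**Figure D1:**
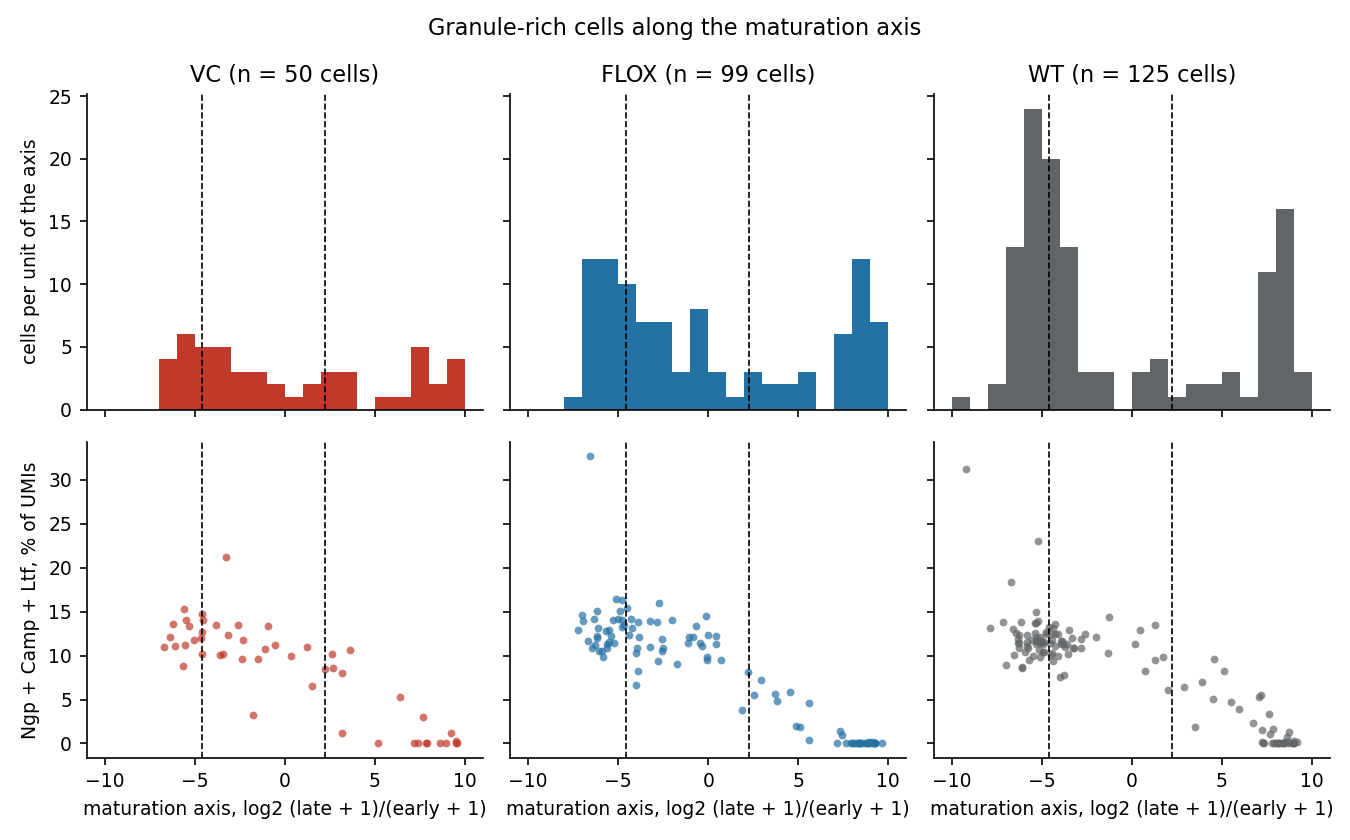
Each column is 1 library, VC, FLOX and WT from left to right. The upper panels count members per unit of the maturation axis (log2 ratio of late to early genes), the lower panels plot the share of each member's UMIs from Ngp, Camp and Ltf in percent, and dashed lines mark the cuts at −4.57 and 2.26. In each library most cells lie below −2 or above 6, with fewer between, and the 3 granule genes take about 12% of UMIs in early cells and far less in most late cells.

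The early stage held 13 of 50 VC members (26%, 14.6 to 40.3%), 30 of 99 in FLOX (30.3%, 21.5 to 40.4%) and 48 of 125 in WT (38.4%, 29.8 to 47.5%). The late stage held 19 VC members (38%, 24.7 to 52.8%), 34 in FLOX (34.3%, 25.1 to 44.6%) and 39 in WT (31.2%, 23.2 to 40.1%). The early share was lowest and the late share highest in VC, but the intervals of all 3 libraries overlapped at both ends. Depth moved with stage: median UMIs per cell were 16000, 11866 and 4596 in the early, middle and late stages, and median genes 2865, 2309 and 1406.5. Its part in the stage values was not tested.

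Secondary granule transcripts were lower in late cells, unevenly from gene to gene. Pooled over libraries, Camp stood at 55768, 50498 and 11129 CPM in the early, middle and late stages, Ngp at 52673, 49243 and 13413, and Ltf at 12155, 14326 and 5036. The share of UMIs from these 3 genes had a median of 12% in VC, 13% in FLOX and 11.7% in WT in early cells, and of 0.253%, 0.0421% and 0.137% in late cells, so that most late cells held next to none and the summed level came from a minority. S100a8 and S100a9 stayed high, at 109444 and 133321 CPM in late cells. Pglyrp1, a bactericidal peptidoglycan-binding protein, was flat at 2557, 2752 and 2569 CPM, and Hp, haptoglobin, at 1599, 1593 and 1600.2 CPM. Serpinb1a, an inhibitor of the primary granule proteases, was at 1091, 987 and 265 CPM.

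**Figure D2:**
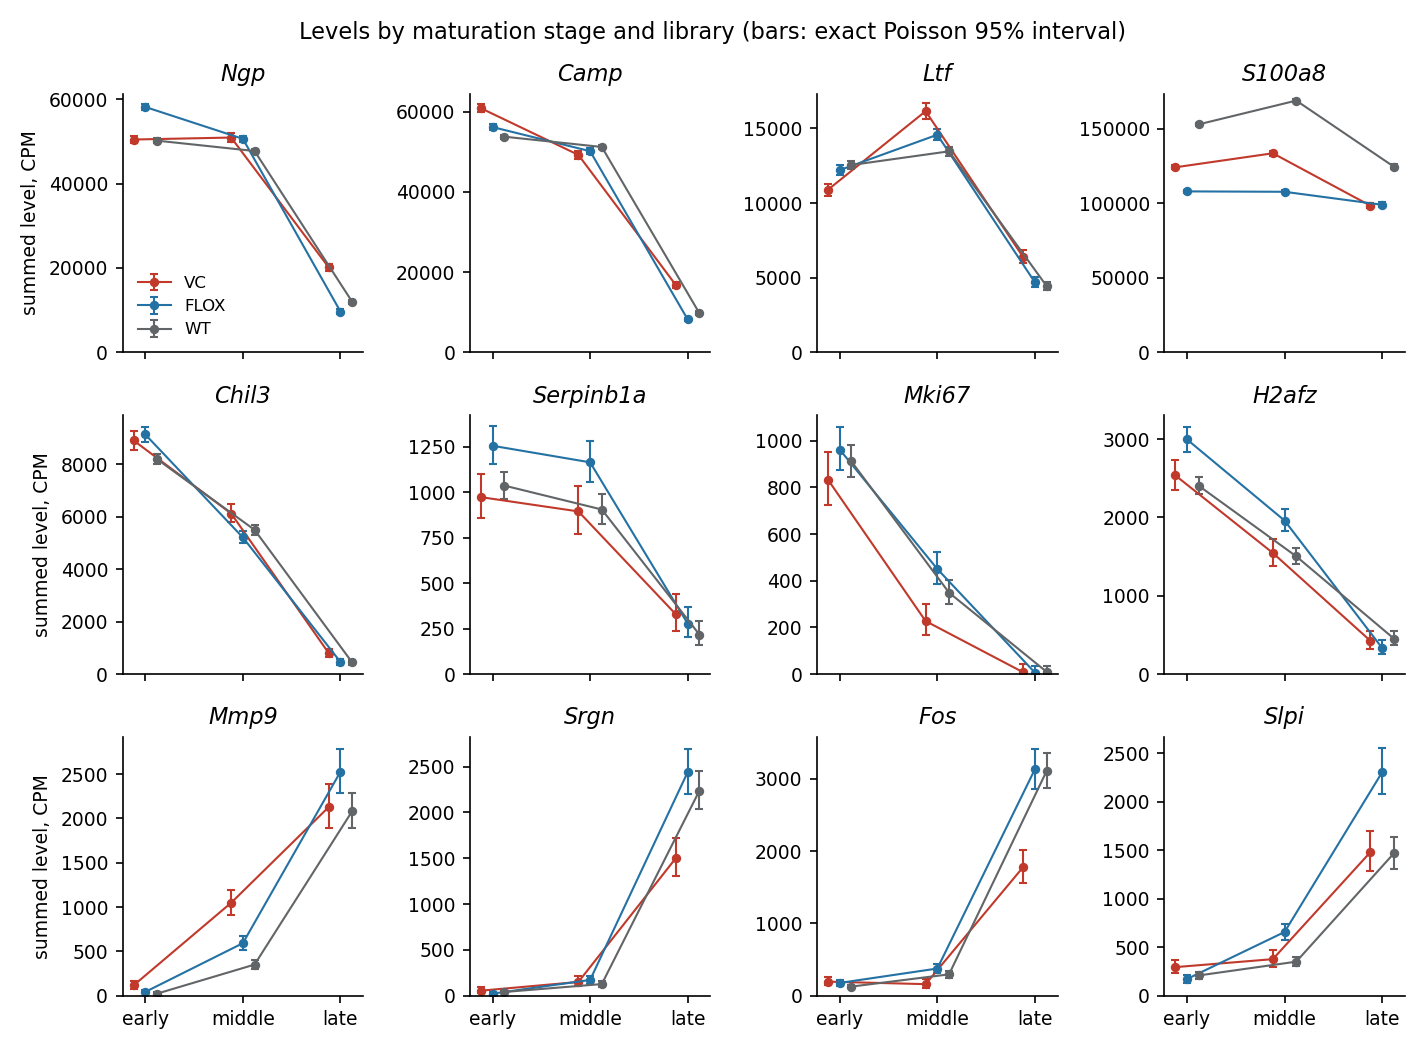
Each panel is 1 gene, with the maturation stage on the horizontal axis and the summed level in CPM on the vertical axis, which starts at 0. Points are libraries (VC red, FLOX blue, WT grey) and bars are exact Poisson 95% intervals. Ngp, Camp, Ltf, Chil3, Serpinb1a, Mki67 and H2afz are low in the late stage, and Mmp9, Srgn, Fos and Slpi are high there. The libraries differ in some genes of the late stage, with Srgn lowest and Ngp highest in VC.

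A stage difference was counted where late and early cells differed at least 2-fold in the same direction in each of the 3 libraries, among 1164 genes of at least 100 CPM over stages. By that count 18.9% of genes were higher in late cells and 8.68% lower. Of 15 measured secondary granule genes 4, Ngp, Camp, Chil3 and Orm1, were lower in late cells and none higher. Ngp and Camp are genes of the rule and Chil3 and Orm1 early genes of the axis, so this count is a description. Of 28 measured genes of mature neutrophils outside the axis, 26 were higher in late cells and none lower, with a median log2 ratio of 3.39 beside 0.27 over all genes. Examples were Mmp9, the gelatinase of gelatinase granules, at 45.4, 558 and 2235 CPM in early, middle and late cells, Srgn, the proteoglycan that packs granule contents, at 37.1, 146 and 2107 CPM, and Slpi, a secreted protease inhibitor, at 212, 456 and 1738 CPM. Wfdc21, the most abundant member of that list, was not among them, at 4368, 5428 and 3568 CPM. Of 26 measured genes of immature neutrophils outside the axis, 8 were lower in late cells and none higher. Among those 8, Ptma, a nuclear protein abundant in dividing cells, stood at 2059, 731 and 104 CPM, and the histone variant H2afz at 2609, 1660.4 and 407 CPM.

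Genes of migration and signalling were higher at the late end. Of 17 measured receptor genes 12 were higher in late cells and none lower, and all 4 measured cytokine genes were higher, counts that include axis genes. Over all genes 18.9% were higher and 8.68% lower. Cxcr2, the chemokine receptor that draws neutrophils into blood and an axis gene, stood at 24.7, 170.3 and 1266 CPM. Fpr2, a receptor for formyl peptides and off the axis, stood at 135, 287 and 472 CPM. The integrin subunit Itgam did not meet the count, at 458, 634 and 773 CPM, and neither did Fcer1g, a signalling adaptor of Fc receptors, at 1041, 1321 and 1512 CPM. Osm, the cytokine oncostatin M, stood at 13.7, 86.5 and 653 CPM.

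Among 11 measured transcription factors 4 were higher in late cells and 1, the axis gene Cebpe, was lower, beside 18.9% and 8.68% of all genes. Fos stood at 153, 296 and 2762 CPM, Junb at 67.4, 186 and 1968 CPM, Cebpb at 133, 154 and 1486 CPM, and Mxd1, an antagonist of Myc, at 260.5, 518 and 1600.2 CPM. Spi1, which encodes PU.1, was not counted, at 348, 421 and 619 CPM. Fos and Junb also belong to the list of immediate early and heat shock genes, which tissue digestion can induce. Of 8 measured genes of that list 5 were higher in late cells and 1, Hsp90aa1, was lower, beside the same shares of all genes. The part of digestion was not tested. The NADPH oxidase, which makes superoxide, was represented by its membrane subunit Cybb, which did not meet the count, at 2507, 2757 and 1250.3 CPM, and by the cytosolic subunit Ncf1, at 753, 876 and 1054 CPM.

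The 10 off-axis genes with the largest late over early ratio were Thbs1, Wfdc17, Stfa2l1, Cxcl2, Clec4d, Ifitm1, Ptgs2, Cd300ld, Dusp1 and Gm5483. Early cells held no UMI of Wfdc17 or of Clec4d, a C-type lectin receptor, and against a floor of 3 UMIs summed over the early cells their late levels of 550.4 and 491 CPM were at least 267-fold and 238-fold higher. Thbs1, the matrix protein thrombospondin, stood at 1.37, 185 and 1089 CPM. Some of these genes differed between libraries within the late stage. Wfdc17 stood at 558 CPM in VC and 1158 in FLOX, against 80.2 in WT. Ifitm1, an antiviral membrane protein, stood at 394, 936 and 156 CPM. Ptgs2, the inducible cyclooxygenase, was highest in WT, at 96.7 and 203 CPM in VC and FLOX against 807 in WT.

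The opposite end was led by genes of division, Hist1h1b, Mki67, Top2a, Hist1h3c, Pclaf, Hist1h2ae, Ube2c, Smc2, Nucks1 and Cenpf. All 8 measured cell cycle genes were lower in late cells, beside 8.68% of all genes. Mki67, a chromosome coat protein of dividing cells, stood at 913, 360.0 and 7.86 CPM, and Top2a, topoisomerase 2, at 629, 191 and 5.90 CPM. After each cell was thinned to 1000 UMIs, Mki67 or Top2a was found in 53.8% of 13 early VC cells, 56.7% of 30 in FLOX and 45.8% of 48 in WT. In late cells it was found after thinning in 0 of 19 in VC, where 3 counts would allow up to 15.8% of cells with a thinned UMI and the exact binomial interval reaches 17.6%, and in 2.94% and 2.56% in FLOX and WT. Without thinning the shares were 69.2%, 73.3% and 77.1% in early cells and 5.26%, 8.82% and 7.69% in late cells. Transcripts of division were thus common in early cells of every library, at shares that overlapped within counting error.

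Over all members the thinned share with Mki67 or Top2a was 16% in VC (7.17 to 29.1%), 25.3% in FLOX (17.1 to 35%) and 26.4% in WT (18.9 to 35%). These thinned intervals overlapped. Without thinning it was 24% (13.1 to 38.2%), 38.4% (28.8 to 48.7%) and 48% (39.0 to 57.1%), at median depths of 9944.5, 7924 and 12130 UMIs, and the intervals of VC and WT did not overlap. In endothelium the thinned share was 0.995%, 1.47% and 2.02%.

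Several genes of DNA replication were among the genes lowest in VC. A rule of size took genes that differed 1.5-fold or more in VC from each control and by more than the controls differed from each other, among 2233 genes that reached 50 UMIs and a mean of 50 CPM. It took 69 genes as lower in VC (3.09%) and 27 as higher (1.21%). With FLOX in the place of VC it took 9 as lower (0.403%) and 43 as higher (1.93%), and with WT 44 (1.97%) and 23 (1.03%). The 12 lowest in VC by the smaller of the 2 ratios were Pcna, Nasp, Lig1, Rrm2, Ranbp1, Topbp1, Cdca7, Eea1, Atad2, Ccdc34, Nsrp1 and Hist1h1d. Pcna, the sliding clamp of DNA polymerase, stood at 18.3 CPM in VC (11 UMIs, exact Poisson interval 9.16 to 32.8 CPM), against 65.1 in FLOX (50.1 to 83.1) and 72.7 in WT (59.7 to 87.6). Rrm2, a subunit of ribonucleotide reductase, stood at 30.0, 137 and 85.2 CPM, and Lig1, DNA ligase 1, at 21.7, 80.3 and 65.4 CPM. All these genes were low in VC beside both controls, from 10 to 28 UMIs each.

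A sum of 8 replication genes was followed across stages as a description. The genes were picked because they were low in VC (Pcna, Nasp, Lig1, Rrm2, Dut, Atad2, Topbp1 and Cdca7), so a low sum in VC restates the choice and does not bear on replication genes as a group. It stood at 337 CPM in early VC cells (270 to 416), 1109 in early FLOX cells and 1075 in early WT cells. Of the 87 UMIs in VC, 41.4% came from 1 cell, and 9 of 13 early VC cells had any, against 26 of 30 in FLOX and 38 of 48 in WT. A sum of 4 mitotic genes (Ube2c, Cenpf, Mki67 and Top2a), also chosen afterwards, stood at 2517 CPM (2327 to 2718), 2260.4 and 1881 CPM in the same cells. Ube2c, which marks mitotic proteins for destruction, was among the genes higher in VC over all members, at 302 CPM against 176 in FLOX and 118 in WT, with UMIs in 11 VC cells. With 13 early VC cells, single cells weigh heavily on both sums.

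Of the 30 measured genes of the cell cycle list 7 stood below both controls in VC over all members, beside 8.91% of all genes, and 1, Ube2c, above, beside 3.14%, with median log2 ratios of −0.36 for VC over FLOX and 0.00 for VC over WT. Within the early stage 9 of 30 stood below, beside 10.1%, and 5 above, beside 6.52%, with medians of −0.08 and 0.26, so the list moved in both directions there. Immature genes outside the cycle differed less evenly. Fcnb, ficolin of granules and an axis gene, stood at 449 CPM in VC, 723 in FLOX and 866 in WT. Ms4a3, a membrane protein of granulocyte precursors, stood at 56.7, 94.5 and 110.3 CPM, and Ptma at 842, 1425 and 1301 CPM. Mgst1, a glutathione transferase of immature granulocytes, went the other way, at 690.3, 412 and 443 CPM. It was higher in VC in each stage: 527, 321 and 346 CPM in early cells, 734, 466 and 466 in middle cells, and 938, 536 and 722 in late cells. Among 31 measured genes of the mature list none stood 1.5-fold above or below both controls over all members, beside 3.14% of all genes above and 8.91% below. Within the late stage, however, 7 of 32 measured genes of that list stood below both controls in VC, beside 9.57% of all genes, and none above. Without the VC member with monocyte transcripts that is described below, 4 did, while the 9.57% was computed with it. Of the genes of at least 100 CPM over stages, 1145 were measured in the late stage. Of these, 106 stood below both controls in VC with that member and 115 without it. The list's median log2 ratios there were −0.51 for VC over FLOX and −0.46 for VC over WT, and −0.39 for both without that member. Over all genes they were −0.02 and −0.06 with it, and over the 1145 genes −0.12 and −0.09 without it. Srgn stood at 1503 CPM in late VC cells, 2439 in late FLOX cells and 2236 in late WT cells, and Il1b, an inflammatory cytokine and an axis gene, at 1689, 3031 and 4260.3 CPM. Mmp9 was close together at 2128, 2526 and 2081 CPM. Late VC cells also had the lowest axis median, 7.40 against 8.26 in FLOX and 7.91 in WT, and the highest residue of Ngp, at 20142 CPM against 9684 and 12002 CPM.

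Other lists were as follows. None of 17 measured transcription factors and none of 6 NADPH oxidase subunits stood 1.5-fold above or below both controls in VC. Over all genes 3.14% stood above and 8.91% below. Within the late stage 2 of 15 measured transcription factors stood above and 2 below, beside 11% and 9.57% of all genes. Of 27 receptor genes 4 stood above over all members, beside 3.14% of all genes. They were Itga4, Fcgr4, Tlr4 and Cd14, of which Itga4 and Fcgr4 no longer did without the monocyte-marker barcode. Cd14, a co-receptor for lipopolysaccharide, rested on 12 UMIs in VC, at 20 CPM against 6.10 in FLOX and 9.91 in WT. Of 9 measured cytokine genes 1, the chemokine Ccl4, stood below both controls, beside 8.91% of all genes, at 16.7 CPM in VC, 44.7 in FLOX and 27.7 in WT. Within the late stage 5 of 10 measured cytokine genes stood below both controls and 1 above. Without the monocyte-marker barcode 4 stood below and 1 above. The shares of all genes there, computed with it, were 9.57% and 11%. The cytokine list summed in late cells to 3735 CPM in VC, 6604 in FLOX and 7775 in WT.

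Interferon-response genes stood higher in VC than in both controls. Of 44 genes of an interferon gamma type list 22 were measured at 10 CPM or more, 14 stood 1.5-fold or more above both controls in VC, beside 3.14% of all genes, and none below. Of 50 genes of a type I antiviral list 28 were measured, 13 were higher and none lower. Over all genes 8.91% stood below both controls. The filter reads the mean over the libraries, VC included, so a gene low in both controls could be measured only through VC. Such a gene, for example Gbp2, is then called higher, and the counts include it. All 22 measured genes of the first list and 26 of 28 of the second had their highest level in VC, at any size of difference, beside 28.1% of all 6016 measured genes. Median log2 ratios of the gamma list were 0.87 for VC over FLOX and 1.41 for VC over WT, and 0.33 for FLOX over WT. Those of the type I list were 0.78, 1.17 and 0.39, and those of all genes −0.12, −0.03 and 0.12. The summed gamma list stood at 3535 CPM in VC, 2176 in FLOX and 1754 in WT, and the type I list at 3243, 1975 and 1625 CPM. The 2 lists share no gene.

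A single VC member carried monocyte transcripts and weighed on some of these genes. It had 21951 UMIs, a granule share of 13.5% and 103 UMIs of Csf1r, Ccr2, Cx3cr1, F13a1, Ms4a6c, Ctss and Ly86, where the other VC members had at most 4. A FLOX member had 34 such UMIs, the other FLOX members at most 3 and the WT members at most 2. These 2 barcodes were left out after their values were seen. Without them the counts above both controls were 14 of 22 for the gamma list and 8 of 26 for the type I list. Over all genes the count was 162 of 5979. Median log2 ratios for VC over FLOX were 0.77 and 0.61, beside −0.14 over all genes. Those for VC over WT were 1.25 and 0.94, beside −0.04. At any size of difference 21 of 22 and 22 of 26 had their highest level in VC, beside 26.5% of all genes. The size rule then took 20 genes higher and 70 lower in VC. Of the 12 genes highest in VC by the smaller ratio, among them Psmb9, Plac8, Samhd1, H2-K1, Ly6e, Ifitm3, 9930111J21Rik2, Snx10, Ube2c, H2-T23 and Psme2, the genes Plac8, Samhd1 and Ly6e were no longer taken. Plac8, a small protein of myeloid and lymphoid cells, stood at 488 CPM in VC with that barcode and 194 without it, against 163 in FLOX and 220.0 in WT.

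The antigen processing genes held without it. Psmb9, a catalytic subunit of the immunoproteasome on chromosome 17, stood at 130.1 CPM in VC (102.8 to 162, 78 UMIs in 36 cells), 49.8 in FLOX (36.9 to 65.9) and 55.5 in WT (44.3 to 68.7), and at 119 CPM in VC without the monocyte-marker barcode. The ratio was 2.61 to FLOX (counting interval 1.80 to 3.81) and 2.34 to WT (1.70 to 3.23). H2-K1, a class I heavy chain, stood at 308 CPM (266 to 356), 150.5 (127 to 177) and 120.2 (103 to 139). Psme2, a proteasome activator subunit, stood at 160.1, 93.5 and 66.7 CPM, and Tap1, which pumps peptides to class I, at 61.7, 29.5 and 15.9 CPM. In each of these genes the VC interval lay above those of both controls. B2m, the class I light chain, did not pass the 1.5-fold size, at 682, 441 and 494 CPM, and neither did H2-D1, at 842, 684 and 437 CPM. Class I genes are near-identical in part, so their reads may be shared among copies, and the same holds for the Gbp, Ifitm and histone families.

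Ifitm3, an antiviral membrane protein, was the most abundant gene of either list and stood at 1154 CPM (1069 to 1243), 618 (570.0 to 669) and 437 (404 to 471), in 47 of 50, 94 of 99 and 108 of 125 cells. Its VC level was 1.87-fold that of FLOX (1.67 to 2.09) and 2.64-fold that of WT (2.37 to 2.94). Isg15, a ubiquitin-like modifier, stood at 60.0, 24.4 and 21.8 CPM, and Irf7, a transcription factor of the type I response, at 46.7, 10.2 and 14.5 CPM. Not every list member differed: Samd9l, an antiviral factor, stood at 267, 239.9 and 250.4 CPM, and Slfn4, a schlafen of myeloid cells, at 222, 236 and 257 CPM.

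**Figure D3:**
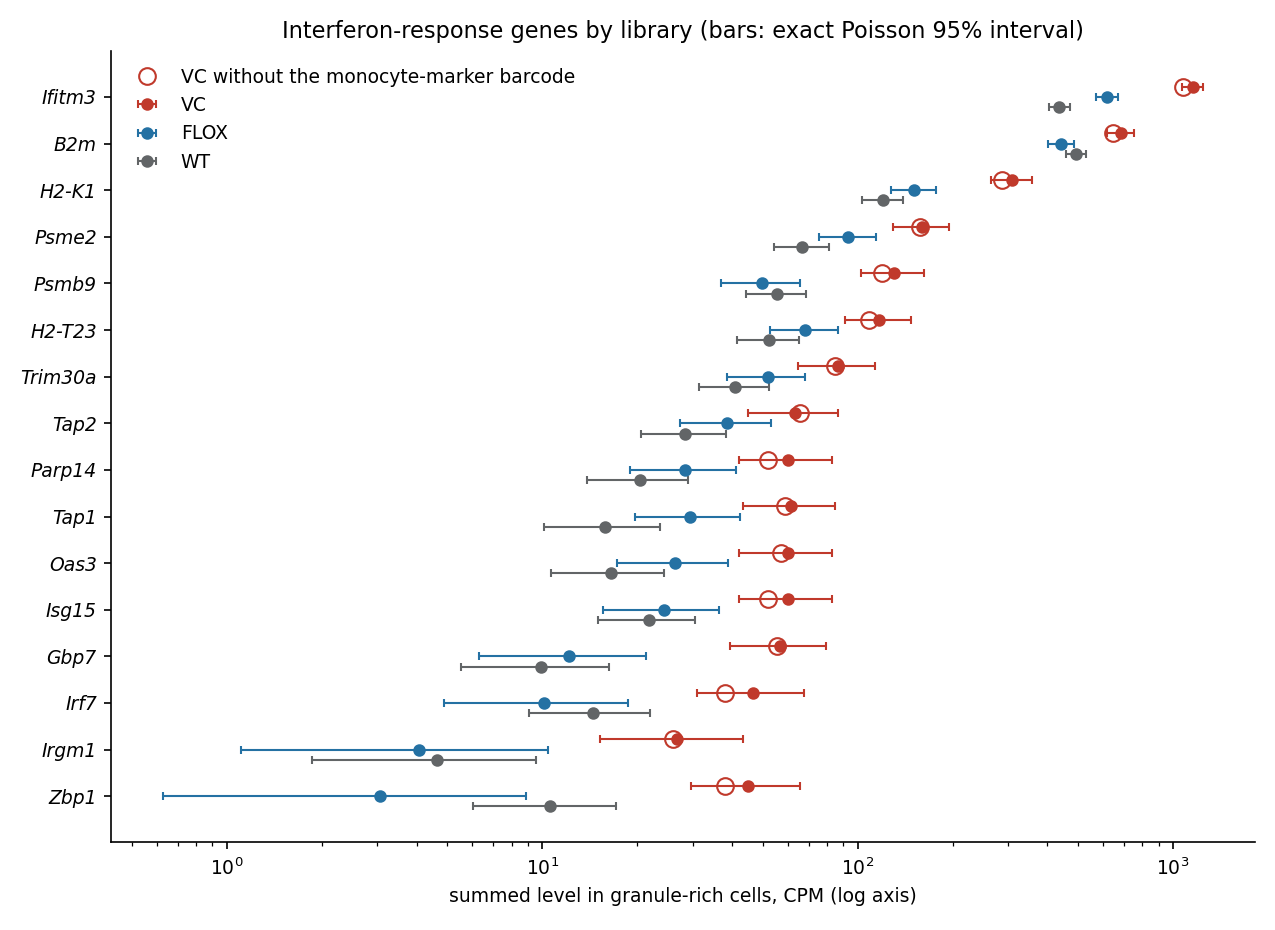
Rows are 16 interferon-response genes, picked after their values were seen among those highest in VC, and the horizontal log axis is the summed level in members in CPM. Filled points are VC (red), FLOX (blue) and WT (grey) with exact Poisson 95% intervals, and open circles are VC without the monocyte-marker barcode. In each row VC lies to the right of both controls, with Ifitm3 at 1154, 618 and 437 CPM at the top and Zbp1 at 45, 3.05 and 10.6 CPM at the bottom.

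Promoters of 3 interferon-response genes are shown because the genes stood high in VC members and their windows hold the letters GAAA, then NN, then GAAA again, the core of the interferon-stimulated response element read by complexes of the STAT and IRF families. Capitals mark the match, which in all 3 lies on the strand opposite to the gene. In the 250 bases before the start (RefSeq, GRCm38.p6) these letters occurred for 2 of the 6 genes with a window among the 8 interferon genes past the 50 CPM size rule, and in 2.98% of 32851 windows of all genes. The letters TTCNNNGAA, the core of the gamma-activated site read by STAT dimers, occurred in none of the 6 and in 7.02% of all. Trim30a, a tripartite motif protein, has its window at chr7:104465194-104465443 on the minus strand, with the match 36 bases before the start, while a second RefSeq window of Trim30a held none. That of H2-T23, a non-classical class I gene, is chr17:36032702-36032951 on the minus strand, with the match 124 bases before the start. Gbp2, a guanylate-binding GTPase below the 50 CPM minimum, has its window at chr3:142620413-142620662 on the plus strand, with the match 59 bases before the start. The window of Psmb9 held neither pattern.
Trim30a: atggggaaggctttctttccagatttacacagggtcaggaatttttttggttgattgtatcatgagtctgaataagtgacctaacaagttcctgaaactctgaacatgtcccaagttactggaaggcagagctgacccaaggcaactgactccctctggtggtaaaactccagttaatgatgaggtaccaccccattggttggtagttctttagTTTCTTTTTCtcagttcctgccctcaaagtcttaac
H2-T23: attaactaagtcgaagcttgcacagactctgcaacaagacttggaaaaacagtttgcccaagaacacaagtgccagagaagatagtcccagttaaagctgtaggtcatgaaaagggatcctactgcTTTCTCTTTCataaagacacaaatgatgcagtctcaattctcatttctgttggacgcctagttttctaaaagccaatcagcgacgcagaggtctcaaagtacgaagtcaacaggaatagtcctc
Gbp2: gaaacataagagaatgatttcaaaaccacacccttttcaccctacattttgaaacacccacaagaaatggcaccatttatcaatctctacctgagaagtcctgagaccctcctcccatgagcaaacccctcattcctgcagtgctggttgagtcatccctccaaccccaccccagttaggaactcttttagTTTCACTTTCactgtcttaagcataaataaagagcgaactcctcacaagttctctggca

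Trim30a stood at 86.7 CPM in VC, 51.9 in FLOX and 41.0 in WT, and H2-T23 at 116.7, 68.1 and 52.2 CPM. Gbp2 stood at 71.7 CPM in VC, where its 43 UMIs came from 4 cells, against 2.03 CPM in FLOX and 3.96 in WT, with 2 and 6 UMIs. Without the monocyte-marker barcode Gbp2 was at 46.7 CPM in VC. The GTPase genes were uneven between cells. A set of 14 interferon-induced GTPase genes, among them Gbp2, Gbp7, Irgm1 and Igtp, gave 161 UMIs in 29 of 50 VC cells, and the 3 highest cells held 56.5% of them. These VC cells include the monocyte-marker barcode, which held 16 UMIs of Gbp2 alone. The GTPase set gave 49 UMIs in 26 of 99 FLOX cells and 70 in 43 of 125 WT cells. At least 5 UMIs were found in 8, 2 and 2 cells.

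With each cell thinned to 1000 UMIs, a UMI of the 14 GTPase genes was found in 22% of VC members (11.5 to 36.0%), 5.05% in FLOX (1.66 to 11.4%) and 7.2% in WT (3.35 to 13.2%), and without thinning in 58%, 26.3% and 34.4%. In B-lineage barcodes of the same libraries (at least 5 UMIs of Cd79a and Cd79b) the thinned share was 25.6%, 12.9% and 23.1%, at median depths of 7406, 13954 and 5032 UMIs. In endothelium it was 81.9%, 54.4% and 53.9%. Fabp4, an endothelial gene at 8562, 10627 and 11715 CPM in endothelium, was found in 6%, 11.1% and 7.2% of members after thinning and in 32%, 51.5% and 52.8% without it. The GTPase share was above the Fabp4 share in VC members and below or level with it in FLOX and WT members. The part of free RNA in these shares was not tested. In late members the GTPase share was 47.4% of 19 cells in VC, 8.82% of 34 in FLOX and 10.3% of 39 in WT, and without thinning 73.7%, 32.4% and 38.5%. The monocyte-marker barcodes, the VC one a late cell, are included in all these shares of members.

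The gamma list differed more in the early and the late stage than in the middle one. Its median log2 ratios for VC over FLOX were 0.94, 0.11 and 1.09 in early, middle and late cells. Those for VC over WT were 1.11, 0.55 and 1.69. Without the 2 monocyte-marker barcodes the late ratios were 0.59 and 1.45. The type I list had ratios of 1.41, 0.15 and 0.42 for VC over FLOX and 1.12, 0.35 and 1.07 for VC over WT. Without the barcodes its middle and late ratios for VC over FLOX were close, at 0.46 and 0.45. Here measured means 10 UMIs or more within the stage, and VC UMIs count towards that minimum. In early cells 9 of 16 measured gamma list genes stood 1.5-fold or more above both controls in VC, beside 6.52% of all genes, and none below, beside 10.1%. In middle cells it was 2 of 17, beside 6.15%, and 1 below, beside 6.89%. In late cells it was 16 of 26, beside 11%, or 13 without the monocyte-marker barcode, and none below, beside 9.57%. The type I list gave 14 of 21, 3 of 25 and 12 of 31 above in the early, middle and late stages, and 0, 1 and 2 below. Without that barcode 8 stood above and 1 below in the late stage. The late shares of 11% and 9.57% were computed with it. Of the genes of at least 100 CPM over stages, 1145 were measured in the late stage. Of these, 100 stood above both controls in VC with that barcode and 32 without it, and 106 and 115 stood below. Per cell, the gamma list had a median of 3221 CPM in early VC cells (quartiles 2338 and 4205), 1503 in early FLOX cells (1279 and 1969) and 1415 in early WT cells (1224 and 1795). The VC lower quartile lay above the upper quartiles of both controls. In middle cells the medians were 2179, 1942 and 1406 CPM, and in late cells 5463, 3443 and 3446 CPM, or 5349.7 in VC without the barcode.

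**Figure D4:**
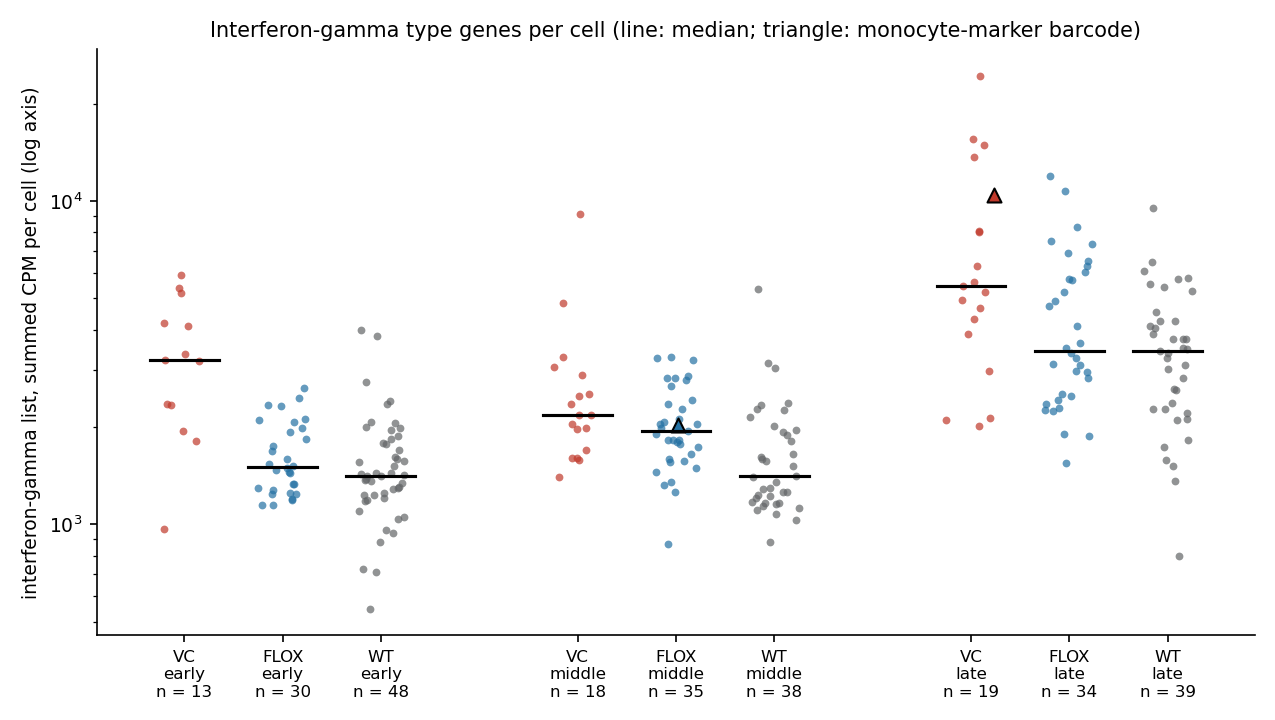
Each point is 1 member, grouped by stage and within a stage by library (VC, FLOX, WT from left to right), with the summed gamma list in CPM of the cell on a log axis. Lines are medians and triangles are the 2 monocyte-marker barcodes. The early VC median of 3221 lies above the FLOX and WT medians of 1503 and 1415, and the 4 highest cells, up to 24421 CPM, are late VC cells.

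The genes that differed most were not the same in the early and the late stage. In early cells Ifitm3 stood at 956 CPM in VC, 359 in FLOX and 291 in WT, H2-K1 at 314, 129 and 109.6, and Psme2 at 225, 75.9 and 69.5. In late cells Psmb9 stood at 201, 73.9 and 56.6 CPM, and at 160 in VC without the monocyte-marker barcode. A UMI of Psmb9 was found in 84.6%, 46.7% and 52.1% of early cells without thinning, and in 7.69%, 0% and 0% after it. A UMI of Ifitm3 was found in 94.7%, 94.1% and 76.9% of late cells without thinning, and in 84.2%, 61.8% and 46.2% after it. Gbp2 stood at 319.9, 6.16 and 4.72 CPM in late cells and at 0, 2.23 and 0 in early cells. Of its UMIs in late VC cells, 16 came from the monocyte-marker barcode. Psme2 in middle cells was at 82.1, 105 and 70.5 CPM, with VC below FLOX.

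A few genes of these lists also differed by stage. In all libraries pooled, H2-D1 stood at 418, 431 and 1461 CPM in early, middle and late cells, Slfn4 at 106, 291 and 531 CPM, and Ifi27l2a, a small mitochondrial interferon-induced protein, at 14.4, 30.9 and 332 CPM. These were the 3 genes of both lists counted as higher in late cells in every library, 1 of 6 measured at 100 CPM in the gamma list and 2 of 5 in the type I list, beside 18.9% of all genes. Late cells made 38% of VC members and 34.3% and 31.2% of FLOX and WT members, and the part of stage in the differences over all members was not tested.

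Levels in members were set beside those in endothelium, which itself held more of these transcripts in VC: H2-K1 stood at 1699 CPM in VC endothelium, 1024 in FLOX and 762 in WT. Of 19 endothelial genes, the median level in members was 0.501% of that in endothelium in VC, 0.625% in FLOX and 0.621% in WT. Erg was the highest, at 21.8%, 30.9% and 24.0%. Of the gamma list genes with at least 50 CPM in endothelium, 36, 24 and 24 genes, the median was 15.8%, 22% and 15%. Of the type I genes, 26, 12 and 15, it was 35.1%, 57.5% and 30.0%. The medians of both interferon lists were thus higher than that of the endothelial list in each library, and the part of free RNA in single genes was not tested. Cxcl9, a chemokine at 3469 CPM in VC endothelium, was in VC members at 18.3 CPM, or 0.529%.

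**Figure D5:**
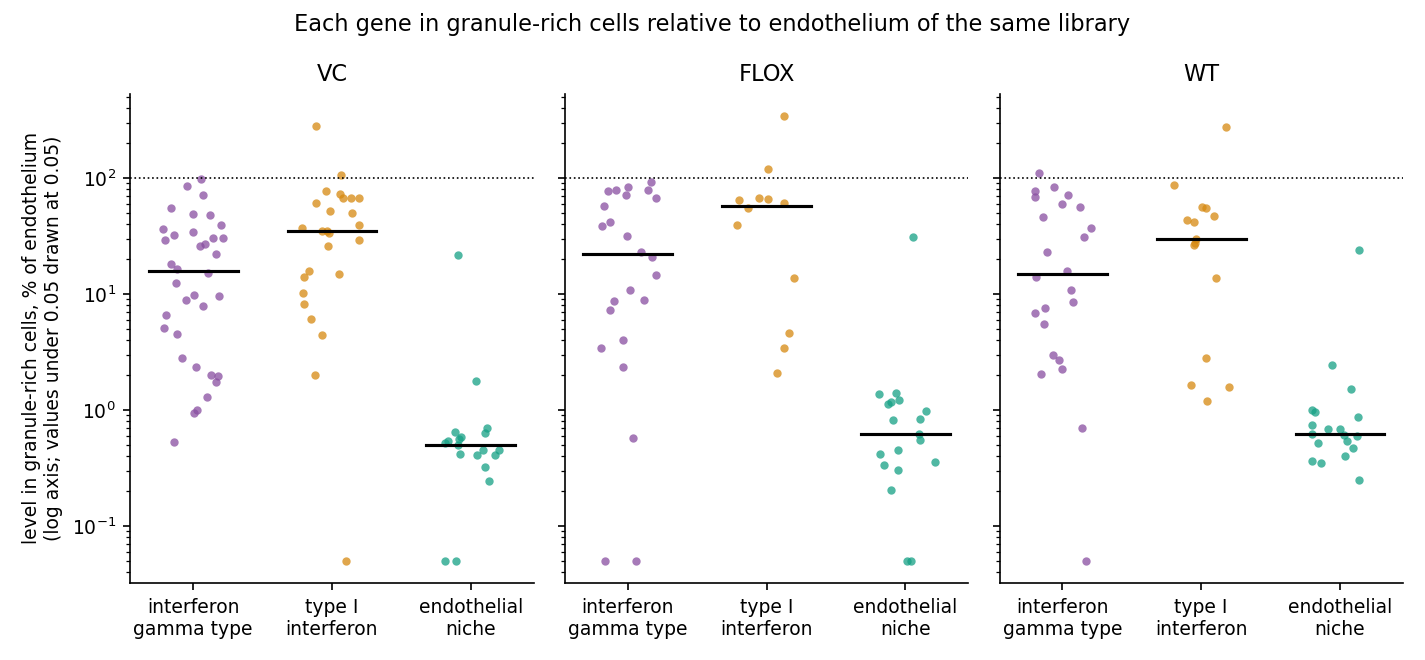
Each point is 1 gene, and its height on the log axis is its level in members as a percentage of that in endothelium of the same library, one panel per library with VC, FLOX and WT from left to right. Lines are medians. Endothelial genes lie near 0.5 to 0.6% in each panel, and both interferon lists lie higher, with gamma list medians of 15.8%, 22% and 15%.

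A stricter condition on niche RNA gave the same order. Requiring 0 UMIs of Cxcl12, Kdr, Stab2, Fabp4, Adipoq, Lepr and Kitl left 24 VC, 26 FLOX and 43 WT members. Among them the gamma list medians were 0.72 for VC over FLOX and 1.32 for VC over WT on the log2 scale, beside −0.12 and 0.05 over all genes, and the type I medians were 0.37 and 0.74. This condition keeps shallow cells, and its members were late in 50% of VC, 50% of FLOX and 34.9% of WT.

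Transcripts of other cell types were low but unequal. The endothelial list summed to 140.1 CPM in VC, 185 in FLOX and 183 in WT, with 2, 2 and 0 of 19 genes at 0, and Fabp4, its most abundant gene, was at 46.7, 86.4 and 80.6 CPM. The monocyte and macrophage list summed to 268 CPM in VC, 122 in FLOX and 78.0 in WT, and to 83.1 and 84.4 CPM in VC and FLOX without the 2 barcodes, with C1qa at 0 in VC and FLOX. The B-lineage list summed to 277, 757 and 126 CPM, of which Igkc, the kappa light chain, made 188, 581 and 62.1 CPM, while Vpreb1 was at 0 in each library. The erythroid list summed to 21.7, 10.2 and 425 CPM, led by the globin Hbb-bs at 6.67, 3.05 and 176 CPM, with Klf1 at 0. VC was lowest in the endothelial sum and, with the 2 monocyte-marker barcodes, highest in the monocyte sum, FLOX was highest in the B-lineage sum and WT in the erythroid sum. The part of these transcripts in the results was not tested. Class II genes were nearly absent. Cd74, which escorts class II proteins, had 41.7 CPM in VC, where 23 of its 25 UMIs came from the monocyte-marker barcode, and 1.02 and 3.30 CPM in FLOX and WT.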

How the data were processed

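Droplet libraries of 3 genotypes were deposited by the authors as raw UMI count matrices over 31053 features. Per the submitters' processing notes, build mm10, Cell Ranger 2.1.1 and Seurat 3.1 were involved. Per the file headers, the matrices were written by software version 3.1.0, so which version counted the reads is uncertain. No annotation of cells was used. Members were chosen by the rule above, and the members, gene lists and tests were chosen with earlier results of these data known.

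Counts of members were summed per library (599735, 983621 and 1513679 UMIs in VC, FLOX and WT) and scaled to CPM. With 1 library per genotype no model was fitted. Intervals are exact Poisson for sums, exact Clopper-Pearson for shares and conditional binomial for ratios, at 95%, and cover counting error only. Zero counts stood at a floor of 3 UMIs in folds. Shares of cells with a UMI were computed after seeded thinning of each cell to 1000 UMIs, which every member exceeded. The size rule asked for 1.5-fold against both other libraries, and by more than those differed. The stage rule asked for 2-fold in each of 3 libraries.

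Named genes were the markers, rule and axis genes, the 20 most abundant genes, up to 5 members per list with those past the size rule, the 12 extremes in VC and the 10 extremes of stage. Tap1, Isg15, Irf7, Zbp1, Gbp2, Gbp7, Irgm1, Cd74, Erg, Cxcl9, C1qa, Dut, Cenpf, Tlr4, Cd14, Fcgr4, Ccl4, the other genes plotted by library, and the sums of replication and mitotic genes were added after their values were seen. Of the list symbols, Mx2 was not matched. A few members of the lists are not reported here by name.

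Scrublet, with an expected rate of 6%, called 9 of 2738 cells in VC, 72 of 5734 in FLOX and 10 of 4318 in WT (0.329%, 1.26% and 0.232%). Under 0.5% in VC and WT, it did not work there, and no doublet was removed.

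Gene identifiers are those of the files. Promoter windows came from RefSeq on GRCm38.p6. Scripts were tested on simulated counts. Python 3.11.15, numpy 2.4.6, scipy 1.17.1, pandas 2.3.3, scanpy 1.11.5 and matplotlib 3.10.9 were used.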

Additional observations from a re-analysis of the deposited data

How the results depend on the processing

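Over 24 results and 20 settings, 264 values were recomputed: 235 stayed within a set interval or 1.5 times the count, 29 moved and 0 reversed. For an interferon list median the interval was that of the single gene nearest the median. It was wide, 0.20 to 2.71 for the gamma list in VC over WT. Only the interferon results could be labelled reversed. Leaving out Scrublet calls removed no member, so that setting could only repeat the main values. The tally therefore does not measure how firm the results are. The gamma list medians ranged over the alternatives between 0.70 and 1.06 for VC over FLOX and between 1.00 and 1.63 for VC over WT, and the type I medians between 0.37 and 0.94 and between 0.74 and 1.51. The stricter niche condition left 24, 26 and 43 members in VC, FLOX and WT (0.877%, 0.453% and 0.996%), took 66 genes as higher in VC, or 42.9% of calls where the size rule on all members gave 28.1%, and moved FLOX to 15.4% early and 50% late cells and the share with Mki67 or Top2a to 3.85% in FLOX and 18.6% in WT. Without the condition on primary granule genes the WT share was 3.5%, and 11 genes were higher and 43 lower in VC. Higher and lower genes in VC numbered 59 and 169 when the 6 rule genes were left out of the scaling, 61 and 114 by the mean over cells, 89 and 275 at a minimum of 20 CPM, 446 and 679 with no minimum but 10 UMIs (39.6% higher), and 4 and 16 at a fold of 2. Without thinning, the Mki67 or Top2a share was 38.4% in FLOX and 48% in WT. The causes were not tested. The exclusion of the 2 monocyte-marker barcodes and of the top 5% of Scrublet scores was chosen after seeing the data. No paired analysis was possible because each genotype had 1 library, and for the same reason no replicate could be left out. Depth limits single genes of few UMIs and all values within the 13 early VC cells.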
